A study of Mus musculus with 6 samples.

Results

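The collagen chain genes of orthotopic HCA-1 liver tumors were compared between untreated mice and mice given a nanogel that carries the enzyme glucose oxidase (GOx) and the chemotherapeutic doxorubicin (DOX), here called GOx-DOX-LGP. The members were all genes whose symbol is Col, a number, the letter a and a number, with a raw count of 1 or more in any library. The rule found 44 genes among the 33495 genes with such a count, namely 11 fibrillar chains, 6 basement membrane chains of type IV and 27 chains of other types. The count filter of edgeR kept 32 of them, 10 fibrillar, 5 basement membrane and 17 other, through their levels in either group. Genes outside this naming pattern that hold collagen domains were not counted as members.

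HCA-1 is a murine hepatocellular carcinoma (HCC) line, and its cells were injected below the liver capsule of male C3H mice of 6 to 8 weeks, of the substrain C3H/HeNCrNarl in the study's methods. Bulk tumor RNA gave 6 libraries, 3 of untreated controls (numbers 5, 6 and 7) and 3 of tumors treated with GOx-DOX-LGP (numbers 1, 2 and 5). Treatment was intravenous on days 18, 19 and 20, whereas the labels place the transcriptome analysis on day 17 after 3 h of circulation. The study's methods give these dosing days for tumors used in quantitative PCR, with harvest on the day after the last dose. For the sequencing they give no schedule. All 6 tumors share the line, host strain and site, and C3H mice have an intact immune system, so that the tissue can hold stroma and immune cells of the host. No label speaks of a vehicle or an empty particle, so the enzyme, the drug and the carrier cannot be told apart. No label gives a batch or says which library came from which mouse, and p-values measure the spread between these libraries only.

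The controls did not form a uniform group, and this bears on each result. Library totals lay between 15529940 and 18401178 counts. Across the genes kept, control 5 correlated with the treated tumors at a Pearson r of 0.970 to 0.980, but with controls 6 and 7 at 0.737 and 0.662, while controls 6 and 7 correlated at 0.974. The summed level of 10 hepatocyte markers was 519, 109470 and 184190 CPM (the count as a share of the scaled library total) in the controls, given here and below in the order 5, 6, 7, and 2950, 1125 and 1633 CPM in the treated tumors, given in the order 1, 2, 5. Alb, Apoa1 and Cyp2e1 were the highest of these markers, and all 10 were detected in each library. Of the defining liver tumor markers, Afp reached at most 13.2 CPM and Gpc3 2.28 CPM, and Igf2 was at or below the level of 3 counts in every library. Xist, which is read from the inactive X chromosome, was found in all libraries of these male hosts, with 7.49, 62.4 and 26.4 CPM in the controls and 14.1, 84.0 and 10.4 CPM in the treated tumors. Ddx3y of the Y chromosome was also found in all, between 82.3 and 156 CPM. The sex of the donor of the HCA-1 line is not given in the sources used here.

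Collagens are trimers of alpha chains whose repeated glycine-X-Y triplets wind into a rope-like helix, since only glycine is small enough for its core. Fibrillar collagens assemble into banded cables, type IV forms the sheet of the basement membrane, type VI forms beaded filaments, and fibril-associated collagens decorate the cables. In injured liver and in tumors, activated stellate cells and fibroblasts are the main makers of fibrillar collagen, whereas hepatocytes make few chains, type XVIII among them.

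The fibrillar chains summed to 6120, 1432 and 1067 CPM in the controls and 4862, 7151 and 2332 CPM in the treated tumors. Col1a1, Col1a2, Col3a1, Col5a1, Col5a2, Col6a1, Col6a2, Col6a3, Col15a1, Col4a1 and Col4a2 were higher in control 5 and in each treated tumor than in controls 6 and 7. Col18a1, Col27a1, Col6a6, Col13a1 and Col25a1 were highest in controls 6 and 7. None of the 32 chains kept passed the test over all libraries. The quasi-likelihood test of edgeR gave 0 chains with an adjusted p under 0.05, and 0.0% of all 15374 genes. At an unadjusted p under 0.05, 0 chains were higher in treated tumors against 2.87% of all genes, and 4 chains were lower, or 12.5% of the chains against 14.6% of all genes. These were Col4a4, Col14a1, Col18a1 and Col27a1. Of them, Col4a4 passed the filter only with the controls included, where it was higher, so its place here adds no support. DESeq2 called 4 of the 36 chains it tested lower at an adjusted p under 0.05, namely Col14a1, Col18a1, Col27a1 and Col25a1, or 11.1% against 9.85% of all genes. It called 0 chains higher, with 0.684% of all genes called higher. A positive log2 fold change was seen for 20 chains and a negative for 12. The median was 0.21 over the chains and 0.02 over all genes, and 23 chains were positive with library totals in place of TMM scaling. Of the positive chains, Col7a1, Col9a3, Col11a1 and Col17a1 passed the filter only with the treated tumors included, where their mean was higher. Of the negative chains, Col4a4, Col24a1 and Col6a6 passed it only with the controls included, where they were higher. These chains add no support to the count. Changes in bulk RNA cannot tell fewer cells of a type from less RNA per cell.

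Libraries of both groups overlapped for 26 of the 32 chains. All treated tumors were above all controls for 1 chain, Col8a1, or 3.12% of the chains against 8.89% of all genes. They lay below all controls for 5 chains, Col4a4, Col14a1, Col18a1, Col23a1 and Col24a1, or 15.6% of the chains against 8.29% of all genes. Of these, Col4a4 and Col24a1 passed the filter only with the controls included, the group where both were higher, so they add no support. Controls 6 and 7 both lay below all treated tumors for 16 of the 32 chains, against 37.3% of all genes, and both above them for 9 chains, or 28.1% against 34.7% of all genes. Control 5 lay within the treated range for 16 of the 32 chains, against 45.6% of all genes. Each library was left out in turn, and the fit without control 5 was the only one of these 6 with calls. It called 12 of 35 chains higher, or 34.3% against 22.2% of all genes, and 7 lower, or 20.0% against 25.5% of all genes. The chains called higher were Col1a1, Col1a2, Col3a1, Col5a1, Col5a2, Col4a1, Col4a2, Col6a1, Col6a2, Col6a3, Col15a1 and Col7a1. Those called lower were Col4a3, Col6a6, Col13a1, Col14a1, Col18a1, Col25a1 and Col27a1. Of these, Col4a3 and Col25a1 passed the filter only through controls 6 and 7, and Col7a1 only through the treated tumors, in each case the group where the chain was higher, so these 3 calls support nothing further. Leaving out control 5 moved the fold change of 16 of the 32 chains by over 1.5 times, leaving out treated tumor 2 that of 8, and leaving out control 6 or 7 that of 2 and 1. Which control resembles the untreated tumor better cannot be told from these libraries. A fault in a label or in the dissection of a tumor was not tested, and each fold change between the groups depends on the labels as given.

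**Figure D1:**
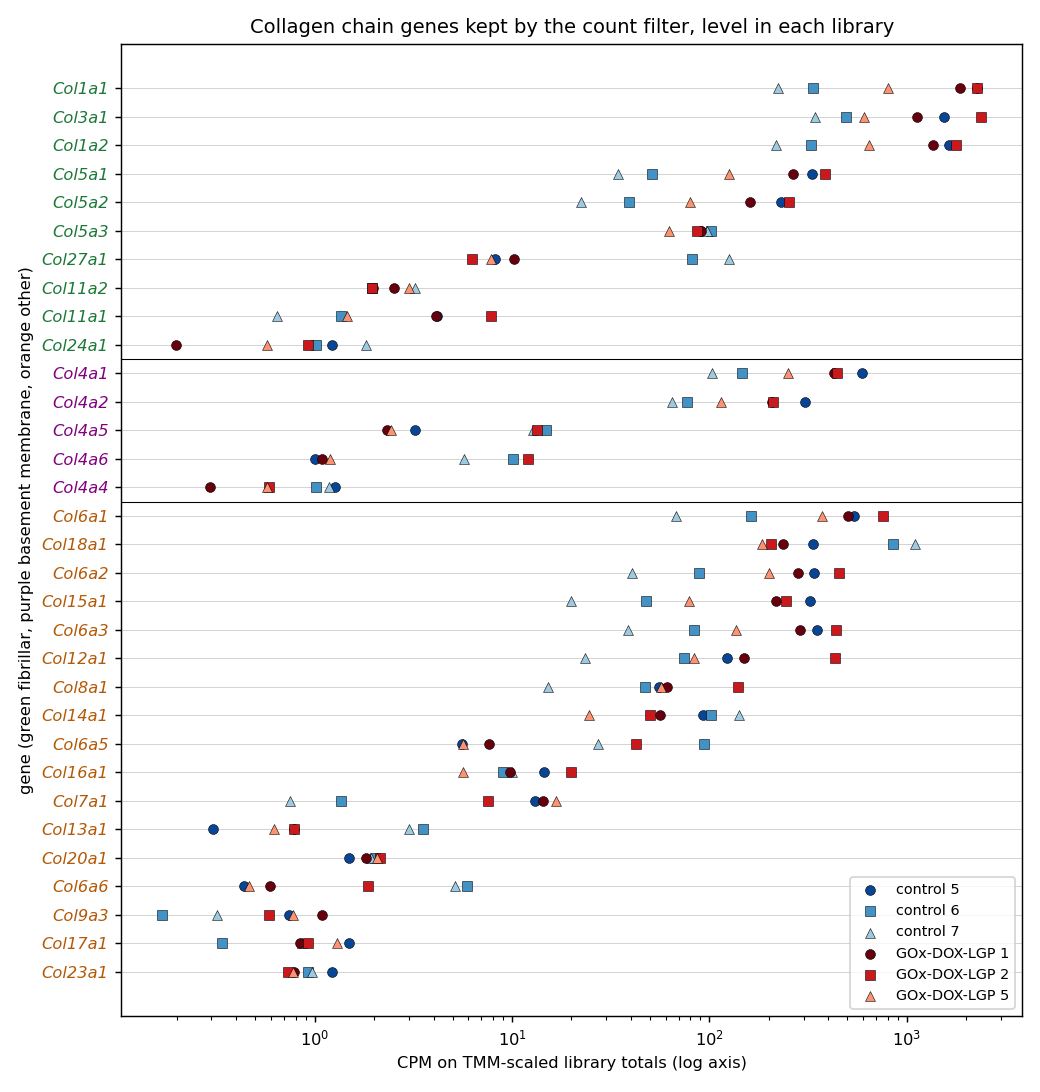
Level of the 32 collagen chain genes kept, in CPM on a log axis, with 1 point per library (blue controls, red treated tumors). Control 5 lies within the range of the treated tumors for 16 of the 32 chains, and its Col1a1 of 2277 CPM lies just above their highest, 2256 CPM, with 333 and 222 CPM in the other controls.

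**Figure D2:**
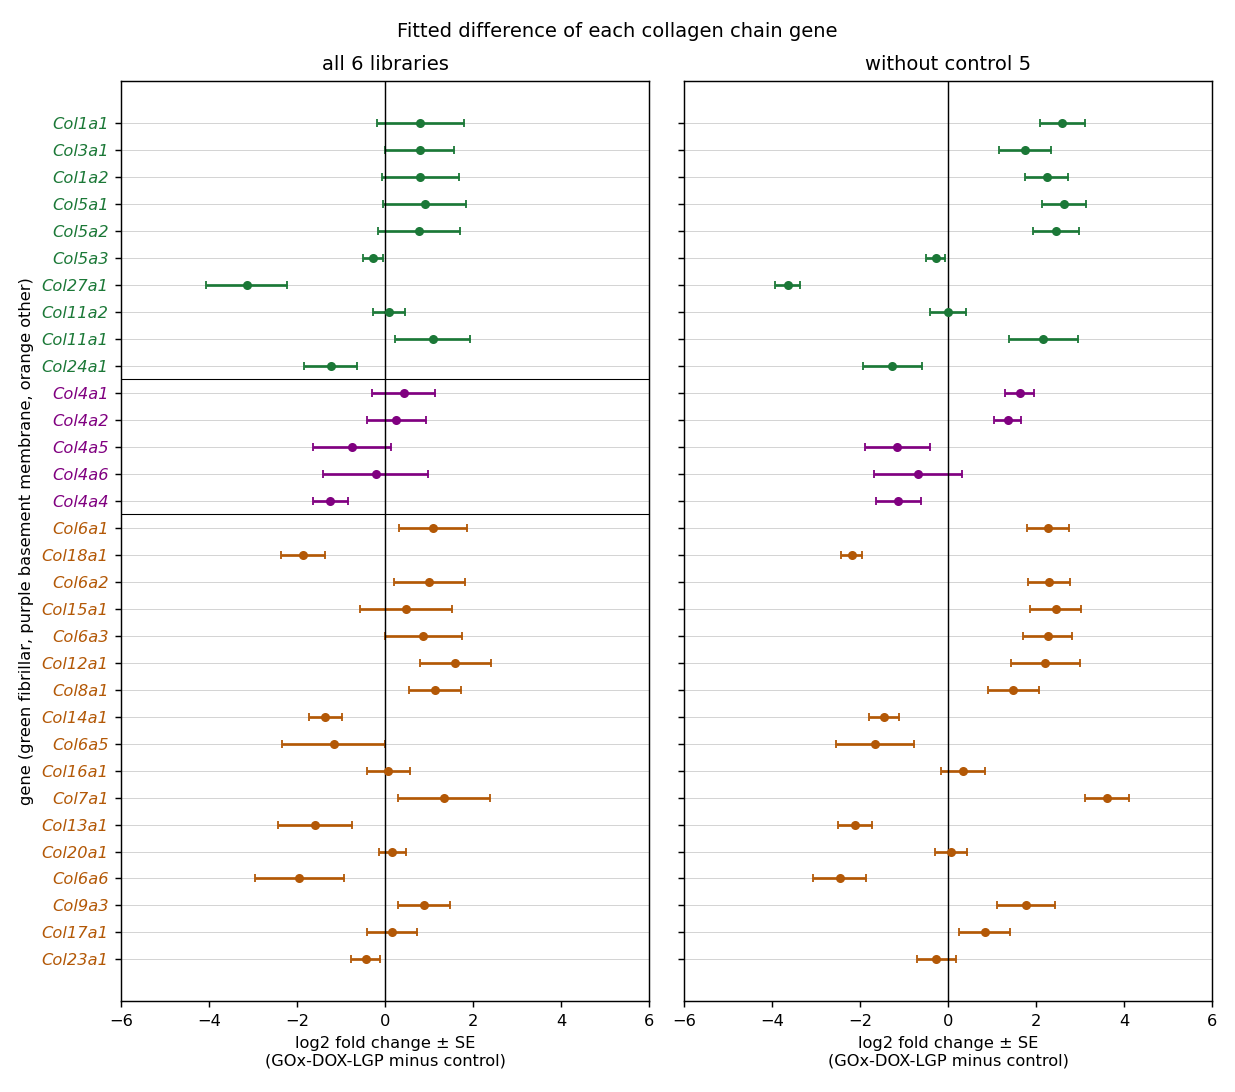
Log2 fold change of treated tumors over controls with its SE for each chain kept, from the fit over all 6 libraries (left) and the fit without control 5 (right). Without control 5 the estimate of Col1a1 moved from 0.79 to 2.59, whereas that of Col18a1 moved from −1.87 to −2.20.

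Fibrillar chains are described first. Type I collagen is the main load-bearing fibril of scar tissue and pairs 2 chains of Col1a1 with 1 of Col1a2. Col1a1 (ENSMUSG00000001506, chr11:94936224-94953042, plus strand, GRCm38) was read at 2277 CPM in control 5, 333 CPM in control 6, 222 CPM in control 7, and 1849, 2256 and 804 CPM in treated tumors 1, 2 and 5. Its means were 944 ± 1156 CPM in the controls and 1636 ± 749 CPM in the treated tumors (SD, n = 3 each), and the spread among the controls exceeded the difference. The log2 fold change was 0.79 ± 0.99 (SE) over all libraries and 2.59 ± 0.51 without control 5. The adjusted p of Col1a1 in the quasi-likelihood, DESeq2 and voom fits that served as alternatives ranged from 0.00151 to 0.938.

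Col1a2 (ENSMUSG00000029661, chr6:4504814-4541544, plus strand), the partner chain, followed Col1a1 with 1628, 326 and 216 CPM in the controls against 1353, 1765 and 643 CPM in the treated tumors and a log2 fold change of 0.79 ± 0.87 (SE). Col3a1 (ENSMUSG00000026043, chr1:45311538-45349706, plus strand), the homotrimer of pliable reticular fibers, was read at 1546, 494 and 344 CPM in the controls against 1128, 2387 and 603 CPM in the treated tumors, with a log2 fold change of 0.79 ± 0.78 (SE). Treated tumor 2 had the highest Col3a1 of all libraries, and treated tumor 5 the lowest of the treated, which were all above controls 6 and 7. Without control 5 the log2 fold changes were 2.24 ± 0.49 for Col1a2 and 1.74 ± 0.59 for Col3a1, and that of Col3a1 was 0.13 without treated tumor 2. A transcript annotated on the same strand, Gm47302, shares 141 exonic bases with Col3a1, so a few of its reads may be counted to either.

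Type V collagen sits inside type I fibrils and limits their width. Its chain Col5a1 (ENSMUSG00000026837, chr2:27886425-28039514, plus strand) was read at 331, 50.9 and 34.3 CPM in the controls against 264, 386 and 125 CPM in the treated tumors, and Col5a2 (ENSMUSG00000026042, chr1:45374321-45503282, minus strand) at 231, 39.2 and 22.3 CPM in the controls against 161, 253 and 80.1 CPM in the treated tumors. Both showed the order of libraries seen for Col1a2, with log2 fold changes of 0.89 ± 0.94 and 0.76 ± 0.93 (SE), and of 2.63 ± 0.50 and 2.45 ± 0.52 without control 5. The third chain Col5a3 (ENSMUSG00000004098, chr9:20770050-20815067, minus strand) did not share it, with 90.4, 101 and 96.9 CPM in the controls against 90.5, 86.2 and 62.2 CPM in the treated tumors. Its level was nearly even over the 6 libraries, and its log2 fold change of −0.27 ± 0.22 (SE) turned to 0.27 when library totals replaced the TMM scaling.

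Col27a1 (ENSMUSG00000045672, chr4:63214004-63334991, plus strand) had the lowest log2 fold change of all chains kept. This fibrillar chain is known from cartilage and has a shorter helix with interruptions. Its level was 8.23 CPM in control 5, 82.0 CPM in control 6, 126 CPM in control 7, and 10.3, 6.26 and 7.78 CPM in treated tumors 1, 2 and 5. Controls 6 and 7 stood far above the other 4 libraries, and control 5 lay inside the treated range. The log2 fold change was −3.15 ± 0.92 (SE, unadjusted p = 0.0137, adjusted p = 0.247), and −3.65 ± 0.28 without control 5. Over 13 alternatives its adjusted p ranged from 8.85e-05 to 0.605. Col24a1, another shorter-helix chain, was near the detection limit, with 28, 12 and 17 counts in the controls against 4, 19 and 11 counts in the treated tumors. Its treated levels lay below all controls, with a log2 fold change of −1.24 ± 0.60 (SE). Col24a1 passed the filter only with the controls included, where it was higher.

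Col11a1 and Col11a2 (type XI, the cartilage counterpart of type V) were read at no more than 7.82 and 3.22 CPM in any library. Their log2 fold changes were 1.08 ± 0.85 and 0.08 ± 0.36 (SE), and that of Col11a1 was 0.41 without treated tumor 2. Col2a1, the cartilage fibril, did not pass the filter and had at most 11 counts. Over the 10 fibrillar chains kept, 7 had a positive and 3 a negative log2 fold change. Their median was 0.77, beside 0.02 over all genes, and 1.95 without control 5. Among them, Col11a1 passed the filter only with the treated tumors included and Col24a1 only with the controls, in each case the group where the chain was higher.

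The sequences upstream of the RefSeq start sites of Col3a1 and Col27a1 are shown because these fibrillar chains were highest in different libraries. They come from the RefSeq promoter table of GRCm38.p6, which held 35 of the 44 members, and each covers the 250 bases before the RefSeq start site, at chr1:45311288-45311537, plus strand for Col3a1 and chr4:63215162-63215411, plus strand for Col27a1. The Col27a1 stretch lies inside the annotated gene given above, which begins at 63214004, since the RefSeq start site is at 63215412. Capitals mark motifs on either strand. The first is TATAAA, the core of a TATA box. The next is CCAAT, the box bound by the nuclear factor Y family. The last is GGGCGG, the core of a GC box. No motif shared letters with another in the stretches shown.
Col3a1: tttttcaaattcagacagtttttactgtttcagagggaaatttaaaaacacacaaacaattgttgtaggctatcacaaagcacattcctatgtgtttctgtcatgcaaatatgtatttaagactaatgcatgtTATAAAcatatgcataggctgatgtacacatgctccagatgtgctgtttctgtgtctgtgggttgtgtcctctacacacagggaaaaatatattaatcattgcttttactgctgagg
Col27a1: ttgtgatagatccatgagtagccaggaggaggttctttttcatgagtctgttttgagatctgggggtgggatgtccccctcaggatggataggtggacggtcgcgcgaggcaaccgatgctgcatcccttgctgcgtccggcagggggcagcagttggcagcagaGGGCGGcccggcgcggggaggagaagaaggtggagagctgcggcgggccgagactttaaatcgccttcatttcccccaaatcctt
The Col3a1 stretch held 1 TATAAA and was 35.2% G and C, and the Col27a1 stretch held 1 GGGCGG and was 59.6% G and C. Of all 32851 RefSeq windows of this length, 12.4% held TATAAA, 33.8% CCAAT and 32.7% GGGCGG. Among the 35 members found, 5, 13 and 21 held them. A match describes letters and not a site in use.

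Type IV chains form 3 gene pairs, each with start sites that face away from each other. Col4a1 (ENSMUSG00000031502, chr8:11198423-11312826, minus strand) and Col4a2 (ENSMUSG00000031503, chr8:11312805-11449287, plus strand), the network of every basement membrane, have start sites 21 bases apart, and their first exons overlap by 22 bases on opposite strands. Col4a1 was read at 590.1 CPM in control 5, 145 CPM in control 6, 103 CPM in control 7, and 425, 445 and 251 CPM in treated tumors 1, 2 and 5. Its means were 279 ± 270.0 CPM in the controls and 374 ± 107 CPM in the treated tumors (SD, n = 3 each). Col4a2 had 303, 77.1 and 64.7 CPM in the controls against 207, 209.9 and 114 CPM in the treated tumors. Control 5 was the highest of all 6 libraries for both chains, and controls 6 and 7 the lowest. The log2 fold changes were 0.42 ± 0.71 and 0.25 ± 0.66 (SE), and 1.62 ± 0.33 and 1.35 ± 0.31 without control 5. That of Col4a2 changed sign when control 6 or 7 was left out, as low as −0.11.

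Col4a3 and Col4a4, which join Col4a5 in the filter of the kidney glomerulus, were close to the limit of detection. Col4a4 (ENSMUSG00000067158, chr1:82448423-82586849, minus strand) had 29, 12 and 11 counts in the controls against 6, 12 and 11 counts in the treated tumors. On the CPM scale this was 1.27, 1.01 and 1.18 CPM in the controls against 0.296, 0.587 and 0.571 CPM in the treated tumors, below all controls, with a log2 fold change of −1.25 ± 0.41 (SE, unadjusted p = 0.0210, adjusted p = 0.247). Col4a4 passed the filter only with the controls included, where it was higher. Col4a3 (ENSMUSG00000079465, chr1:82586921-82722059, plus strand) did not pass the filter over all libraries and had 6, 15 and 18 counts in the controls against 6, 7 and 9 counts in the treated tumors. It overlaps C430014B12Rik by 563 exonic bases on the opposite strand, and since the strand setting of the counting is not given in the sources used here, these reads cannot be told apart. The 71 bases between their start sites (chr1:82586850-82586920, minus strand, GRCm38.p6) are shown as the stretch that both genes have upstream.
Col4a4: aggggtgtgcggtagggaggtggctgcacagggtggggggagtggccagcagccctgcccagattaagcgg
This stretch held none of these motifs and was 69.0% G and C.

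Col4a5 (ENSMUSG00000031274, chrX:141475385-141689234, plus strand) and Col4a6 (ENSMUSG00000031273, chrX:141165403-141474076, minus strand) lie on the X chromosome with start sites 1309 bases apart, and their chains occur in epithelial and smooth muscle basement membranes. Their pattern differed from that of Col4a1. Col4a5 was read at 3.24, 14.9 and 12.8 CPM in the controls against 2.32, 13.4 and 2.44 CPM in the treated tumors, and Col4a6 at 1.01, 10.1 and 5.68 CPM in the controls against 1.09, 12.0 and 1.19 CPM in the treated tumors. Controls 6 and 7 and treated tumor 2 were high for both chains and the other 3 libraries low, which were also the libraries with the higher and lower Xist. Col6a5 and Col6a6 of chromosome 9, described below, showed the same split. The part of the sex chromosomes in this order was not tested. The log2 fold changes of Col4a5 and Col4a6 were −0.76 ± 0.89 and −0.22 ± 1.19 (SE), and that of Col4a6 turned to 0.52 with library totals in place of TMM scaling. Without treated tumor 2 they were −2.08 for Col4a5 and −2.25 for Col4a6, and with library totals that of Col4a5 was −0.023. Of the 5 basement membrane chains kept, 2 had a positive and 3 a negative log2 fold change, with a median of −0.22, which became 0.47 with library totals, where the median of all genes was 0.51.

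Of the other collagens, type VI is given first. It forms a beaded mesh around cells and links them to the matrix. Col6a1 (ENSMUSG00000001119, chr10:76708792-76726168, minus strand) was read at 539.9 CPM in control 5, 161 CPM in control 6, 67.6 CPM in control 7, and 502, 757 and 369.9 CPM in treated tumors 1, 2 and 5. Col6a2 (ENSMUSG00000020241, chr10:76595762-76623630, minus strand) had 337, 88.6 and 40.3 CPM in the controls against 282, 452 and 199 CPM in the treated tumors, and Col6a3 (ENSMUSG00000048126, chr1:90765923-90843971, minus strand) had 352, 83.1 and 38.8 CPM in the controls against 287, 439 and 136 CPM in the treated tumors. For each of these 3 chains treated tumor 2 was the highest library, and controls 7 and 6 the lowest. The log2 fold changes were 1.08 ± 0.78, 1.00 ± 0.80 and 0.86 ± 0.87 (SE) over all libraries, and 2.27 ± 0.48, 2.30 ± 0.48 and 2.26 ± 0.56 without control 5.

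The alternative type VI chains had another pattern. Col6a5 (ENSMUSG00000091345, chr9:105856078-105960643, minus strand) was read at 5.61, 93.3 and 27.1 CPM in the controls against 7.65, 42.6 and 5.66 CPM in the treated tumors, and Col6a6 (ENSMUSG00000043719, chr9:105687809-105828160, minus strand) at 0.438, 5.91 and 5.15 CPM in the controls against 0.592, 1.86 and 0.467 CPM in the treated tumors. Controls 6 and 7 and treated tumor 2 were the highest for both. Their log2 fold changes were −1.17 ± 1.17 and −1.95 ± 1.02 (SE), and that of Col6a5 ranged from −2.63 without treated tumor 2 to 0.18 without control 6. That of Col6a6 was −2.80 without treated tumor 2. Col6a6 passed the filter over all libraries only with the controls included, where it was higher. Of the stretches of 50 bases in Col6a5 and Col6a6, 3.42% and 3.54% also occur in other genes, so their split of reads is slightly uncertain. Col6a4 had at most 1 count in any library.

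Type XVIII and type XV, the multiplexins of vessel and epithelial basement membranes, were high in different libraries. Col18a1 (ENSMUSG00000001435, chr10:77052178-77166548, minus strand), whose chain is the source of endostatin and which hepatocytes also make, was read at 333 CPM in control 5, 846 CPM in control 6, 1105 CPM in control 7, and 235, 205 and 185 CPM in treated tumors 1, 2 and 5. The means were 762 ± 393 CPM in the controls and 208 ± 25.2 CPM in the treated tumors (SD, n = 3 each), and all treated tumors lay below all controls. Control 5 was nearer to the treated tumors than to the other controls. The log2 fold change was −1.87 ± 0.50 (SE, unadjusted p = 0.00909, adjusted p = 0.247), and −2.20 ± 0.25 without control 5, with an adjusted p over 13 alternatives between 0.000473 and 0.605. Col15a1 (ENSMUSG00000028339, chr4:47208161-47313167, plus strand), a chain of vessel walls, was read at 323, 47.7 and 19.8 CPM in the controls against 217, 245 and 78.6 CPM in the treated tumors. It was lowest in controls 6 and 7 and highest in control 5. Its log2 fold change was 0.47 ± 1.04 (SE), 2.44 ± 0.58 without control 5 and −0.04 without control 7.

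The stretch upstream of Col18a1 is shown beside that of Col27a1, since both were highest in controls 6 and 7. It holds 232 bases (chr10:77166549-77166780, minus strand, GRCm38.p6) that end where the annotated gene begins, with the same motifs in capitals.
Col18a1: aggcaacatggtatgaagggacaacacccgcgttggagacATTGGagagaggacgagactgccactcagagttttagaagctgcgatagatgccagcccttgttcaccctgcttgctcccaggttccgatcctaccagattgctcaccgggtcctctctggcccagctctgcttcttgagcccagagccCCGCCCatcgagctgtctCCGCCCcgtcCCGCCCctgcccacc
It held 1 CCAAT and 3 GGGCGG, counting both strands, and was 60.8% G and C.

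Fibril-associated collagens were split. Col14a1 (ENSMUSG00000022371, chr15:55307750-55520803, plus strand), which binds the surface of type I fibrils, was read at 92.5, 102 and 141 CPM in the controls against 56.2, 49.7 and 24.5 CPM in the treated tumors. All treated tumors were below all controls, and here control 5 stood with the other controls. The log2 fold change was −1.37 ± 0.37 (SE, unadjusted p = 0.00994, adjusted p = 0.247), and −1.46 ± 0.35 without control 5, with an adjusted p between 0.0112 and 0.605 over 13 alternatives. Col12a1 (ENSMUSG00000032332, chr9:79598991-79718831, minus strand), a related chain, was highest in treated tumor 2, with 123, 74.2 and 23.4 CPM in the controls against 149.7, 432 and 83.2 CPM in the treated tumors. Its log2 fold change was 1.59 ± 0.82 (SE), the highest of all chains kept. Without treated tumor 2 it was 0.68, below the 1.61 of Col7a1. Control 5 exceeded treated tumor 5, and controls 6 and 7 lay below all treated tumors.

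The remaining kept chains of this class were Col16a1, Col20a1 and Col9a3, with log2 fold changes of 0.07 ± 0.50, 0.16 ± 0.30 and 0.88 ± 0.59 (SE). Col9a3 passed the filter only with the treated tumors included, where it was higher. Col20a1 lay between 1.49 and 2.15 CPM in every library. Col9a1, Col9a2, Col19a1 and Col22a1 did not pass the filter and had at most 5 counts each.

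Col8a1 (ENSMUSG00000068196, chr16:57624258-57754737, minus strand), a short-chain collagen of vessel walls, was the only kept chain whose treated levels were all above the controls, with 55.4, 47.3 and 15.2 CPM in the controls against 61.0, 140.1 and 57.1 CPM in the treated tumors. The margin between control 5 and treated tumor 5 was small beside the spread within each group. The log2 fold change was 1.13 ± 0.59 (SE). Its relatives Col8a2 and Col10a1, the latter of growth plate cartilage, did not pass the filter, with at most 23 and 6 counts. Col2a1 and Col28a1, which were not kept, also had all treated levels above the controls, from 1 to 2 counts in the controls against 5 to 11 in the treated tumors for Col2a1 and 1 to 7 against 8 to 21 for Col28a1. In the other direction, Col9a2, also not kept, had all treated CPM below the controls, from 2, 3 and 1 counts against 1, 0 and 0.

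Col7a1, the anchoring fibril below epithelia, was read at 13.0, 1.35 and 0.751 CPM in the controls against 14.4, 7.53 and 16.7 CPM in the treated tumors. Controls 6 and 7 had only 16 and 7 counts, and Col7a1 passed the filter only with the treated tumors included, where it was higher. Its log2 fold change was 1.33 ± 1.05 (SE), and 3.61 ± 0.50 without control 5, where it was the highest of all chains. Col26a1 and Col28a1 did not pass the filter, with at most 2 and 21 counts.

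Transmembrane collagens are anchored in the cell surface. Col13a1 (ENSMUSG00000058806, chr10:61838236-61979108, minus strand), found at cell contacts, was read at 0.307, 3.55 and 3.00 CPM in the controls against 0.789, 0.782 and 0.623 CPM in the treated tumors, and controls 6 and 7 stood above the other 4 libraries. Its log2 fold change was −1.61 ± 0.84 (SE), and −2.12 ± 0.39 without control 5. Col25a1, known from neurons and muscle innervation, was not kept over all libraries and had 2, 29 and 45 counts in the controls against 3, 3 and 4 counts in the treated tumors. Only controls 6 and 7 had more than 4 counts and carried it past the filter of the fit without control 5, so its calls as lower in that fit and in DESeq2 are no independent support. Col23a1 had 28, 11 and 9 counts in the controls against 16, 15 and 15 counts in the treated tumors. Its treated CPM lay below all controls, with a log2 fold change of −0.45 ± 0.33 (SE) that turned to 0.02 with library totals in place of TMM scaling. Col17a1 of the hemidesmosome had a log2 fold change of 0.15 ± 0.56 (SE) and passed the filter only with the treated tumors included, where its mean was higher. Of all 44 members, 4 had no more than 3 counts in any library.

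Over the 17 other chains kept, 11 had a positive and 6 a negative log2 fold change. The median was 0.16 over all libraries and 0.83 for the same chains without control 5. Among them, Col7a1, Col9a3, Col17a1 and Col6a6 passed the filter only with the group included where their mean was higher. With a filter of 50 counts in 3 libraries the median over 11 chains was 0.86.

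Levels of different chains were compared per kilobase of transcript. Averaged over the 6 libraries, Col1a1, Col3a1 and Col1a2 were the highest with 218, 195 and 185 CPM per kb, followed by Col6a1, Col18a1 and Col6a2 with 97.5, 86.7 and 59.0 CPM per kb. For these 6 chains, the gap between neighbours in the order was smaller than the range of either over the libraries. Collagen chains took 1.14%, 0.247% and 0.157% of all counts in the controls and 0.908%, 1.29% and 0.480% in the treated tumors. All treated tumors were above controls 6 and 7, and treated tumor 2 was above control 5.

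The make-up of this collagen RNA was alike in control 5 and the treated tumors and differed in controls 6 and 7. Fibrillar chains held 65.5%, 43.7% and 37.8% of the summed level per kb in the controls and 65.3%, 66.7% and 58.4% in the treated tumors. Col18a1 alone held 3.69%, 26.9% and 41.3% in the controls and 3.27%, 1.97% and 4.78% in the treated tumors. It was the chain with the largest share in controls 6 and 7, and Col1a1 or Col3a1 was in the other 4 libraries. Type VI chains held 15.9%, 14.5% and 7.22% in the controls and 17.6%, 19.0% and 22.6% in the treated tumors. Type IV chains varied less, from 5.58% to 8.49% over the 6 libraries.

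**Figure D3:**
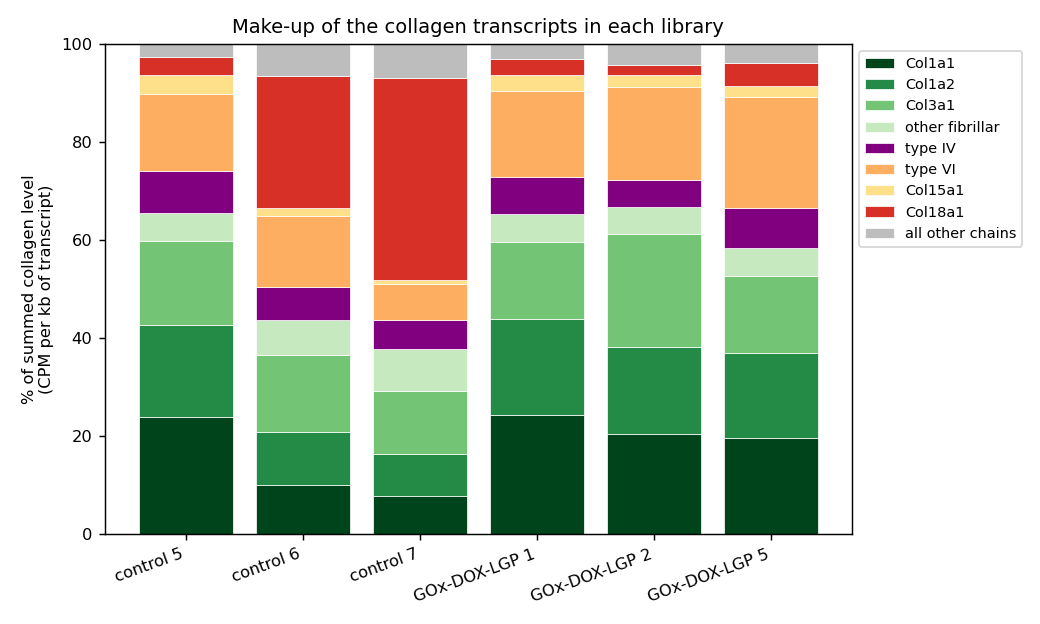
Share of each part in the summed level of all 44 collagen chain genes, in CPM per kb of transcript, with 1 bar per library that adds to 100%. Col18a1 (red) fills 26.9% and 41.3% of controls 6 and 7 and at most 4.78% of the other libraries.

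Ratios between partner chains were compared within each library, where scaling cancels. Col1a1 to Col1a2 was 1.26, 0.920 and 0.927 in the controls and 1.23, 1.15 and 1.13 in the treated tumors. The protein has 2 chains to 1, and the absolute ratio depends on the transcript length used, since merged exons gave 1.93 to 2.65 in place of 0.920 to 1.26. That alternative was chosen after seeing the data. Col6a1 to Col6a2 was the most even of the 7 ratios, from 1.55 to 1.79, Col6a3 to Col6a2 ranged from 0.299 to 0.459, and Col4a1 to Col4a2 ranged from 1.55 to 2.14. Although the level of Col4a1 differed by 590 against 103 CPM between control 5 and control 7, the ratio to its neighbor was 1.90 and 1.55.

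Col4a5 to Col4a6 ranged from 1.14 to 3.27 and Col4a3 to Col4a4 from 0.244 to 1.93, the latter from counts between 6 and 29. The ratio of Col3a1 to Col1a1, often read as the balance of pliable against stiff fibrils, was 0.724, 1.58 and 1.65 in the controls and 0.650, 1.13 and 0.800 in the treated tumors. It was above 1 in controls 6 and 7 and in treated tumor 2.

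**Figure D4:**
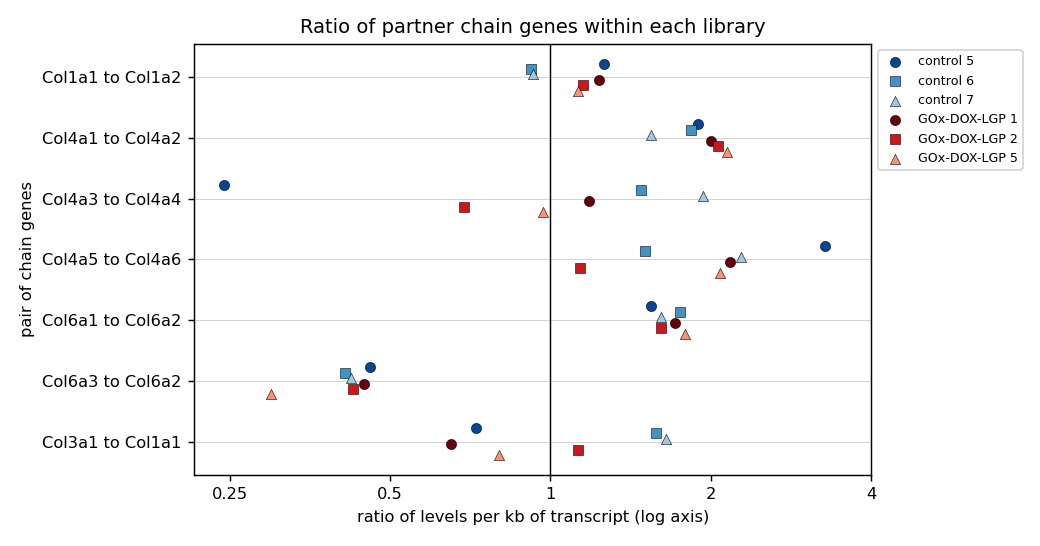
Ratio of partner chain genes within each library, per kb of transcript on a log axis, with 1 point per library (blue controls, red treated tumors). Col6a1 to Col6a2 lies between 1.55 and 1.79, whereas Col4a3 to Col4a4 spreads from 0.244 to 1.93.

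The classes differ in the coding sequence of their members. In the longest open reading frame of each gene, runs of at least 5 glycine-X-Y triplets were counted. Col1a1, Col1a2, Col2a1, Col3a1, both type XI chains and the 3 type V chains had an unbroken run of 337 to 344 triplets. Col24a1 and Col27a1 reached 216 and 217. The type IV chains had 425 to 444 triplets in all, in 22 to 27 runs, the longest of 39 to 66. Col6a1 and Col6a2 had a run of 87 triplets each. Col18a1 and Col15a1 had 14 and 11 runs, none over 30 triplets. Col12a1 and Col14a1, which lay on opposite sides of the comparison, had the same 83 triplets in 5 runs. Chains with runs of like length did not share 1 pattern of levels, as Col1a1 and Col5a3 had 338 and 337 triplets and log2 fold changes of 0.79 and −0.27, the latter 0.27 with library totals.

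Genes that build, process and bind the chains were read from lists chosen with earlier results of these data known. None of their members had an adjusted p under 0.05 in the edgeR test over all libraries, and DESeq2 called 1 of them, Tmem38b, lower. The directions are those of TMM scaling, since library totals moved the median of all genes to 0.51. Chain modification and folding, which hydroxylates proline and lysine and guides the chains through the endoplasmic reticulum, had 14 of 20 genes with a positive log2 fold change and a median of 0.32. At an unadjusted p under 0.05, 1 of the 20 was higher and 3 were lower, beside 2.87% and 14.6% of all genes. Tmem38b, an ion channel of the endoplasmic reticulum, had 10.4, 86.1 and 114 CPM in the controls against 12.2, 9.68 and 8.30 CPM in the treated tumors and a log2 fold change of −2.80 ± 0.82 (SE). Its DESeq2 adjusted p was 0.0110, with 9.85% of all genes called lower by DESeq2, and its edgeR adjusted p was 0.247. Colgalt2, which adds galactose to hydroxylysine, was at −2.27 ± 0.79 (SE), and P4ha1, a prolyl hydroxylase subunit induced by low oxygen, at 1.48 ± 0.73 (SE). P4ha1 was read at 200.2, 48.6 and 29.8 CPM in the controls against 264, 292 and 224 CPM in the treated tumors, without overlap between the groups. Its edgeR unadjusted p was 0.0856 and its adjusted p 0.339. In this list 3 of 20 genes had all treated tumors above all controls, beside 8.89% of all genes.

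Propeptide removal and cross-linking had 9 of 10 genes with a positive log2 fold change and a median of 0.71, with 0 genes at an unadjusted p under 0.05. Lox, the lysyl oxidase that starts cross-links, was read at 69.4, 7.35 and 3.75 CPM in the controls against 78.2, 185 and 32.9 CPM in the treated tumors, with treated tumor 2 the highest and controls 6 and 7 the lowest. Its log2 fold change was 1.87 ± 1.21 (SE), that of Loxl2 1.21 ± 0.91 and that of Pcolce2, an enhancer of propeptide removal, 0.95 ± 0.95.

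Of the collagen receptors, 6 of 9 genes had a positive log2 fold change, with a median of 0.51, and at an unadjusted p under 0.05 there were 0 higher and 1 lower, beside 2.87% and 14.6% of all genes. Itga1, the integrin subunit that prefers type IV collagen, was read at 49.4, 78.2 and 81.7 CPM in the controls against 39.6, 40.3 and 24.4 CPM in the treated tumors. It was the only 1 of the 9 with all treated tumors below all controls, beside 8.29% of all genes. Its log2 fold change was −1.01 ± 0.31 (SE, unadjusted p = 0.0168). Itga11, a fibrillar collagen receptor of fibroblasts, and the kinase Ddr1 were at 1.24 ± 0.90 and 1.05 ± 0.63 (SE).

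Basement membrane partners, mostly laminins, had 8 of 14 genes with a positive log2 fold change and a median of 0.29. The 3 with the largest size were the laminin alpha chains Lama3, Lama1 and Lama2 at −1.89 ± 1.22, −1.74 ± 0.87 and −1.10 ± 0.47 (SE). Fibril-binding matrix proteins had 8 of 10 genes with a positive log2 fold change and a median of 0.42. Tnc, a glycoprotein of remodelled matrix, Dcn, which coats fibrils, and Thbs1 were at 1.43 ± 0.73, −1.15 ± 0.70 and 0.93 ± 0.76 (SE). Neither list had a gene with an unadjusted p under 0.05, beside 2.87% of all genes higher and 14.6% lower.

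Markers of the cell types that a liver tumor can hold did not share 1 order of libraries. All 10 hepatocyte markers had a negative log2 fold change, with a median of −5.78 and with all 10 at an unadjusted p under 0.05, beside 14.6% of all genes, yet none separated the groups, since control 5 did not lie above the treated tumors. Their summed level was 519 CPM in the control with high fibrillar collagen, and 109470 and 184190 CPM in the controls with low fibrillar collagen and high Col18a1 and Col27a1. The part of hepatocyte RNA in these collagen differences was not tested. Controls 6 and 7 also had the lower TMM factors of 0.759 and 0.569, against 1.21 to 1.24 in the other libraries.

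Endothelial markers had 9 of 10 genes with a negative log2 fold change, and 7 of 10 had all treated tumors below all controls, beside 8.29% of all genes. DESeq2 called 6 of them and all 10 hepatocyte markers lower, beside 9.85% of all genes. Their summed level was 176, 451 and 506 CPM in the controls and 157, 158 and 123 CPM in the treated tumors. Eng, Kdr and Cdh5 were the highest by mean over the libraries, and Stab2 of the liver sinusoid was read at 8.50, 86.5 and 93.6 CPM in the controls against 7.50, 5.04 and 6.75 CPM in the treated tumors. Endothelium makes Col18a1 and Col4a1 among other cells, and controls 6 and 7 were the highest libraries for the markers and Col18a1 and the lowest for Col4a1. The part of endothelial RNA in these levels was not tested.

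The stellate cell and fibroblast markers were split, with 6 of 12 positive and 6 negative, and a summed level of 433, 760 and 848 CPM in the controls and 412, 673 and 256 CPM in the treated tumors. Lrat, which stores vitamin A in resting stellate cells, was read at 2.28, 38.0 and 37.0 CPM in the controls against 2.76, 1.32 and 1.45 CPM in the treated tumors. Reln of the same list was read at 18.5, 70.2 and 129 CPM in the controls against 13.7, 7.28 and 8.20 CPM in the treated tumors. It was the only 1 of the 12 with all treated tumors below all controls, beside 8.29% of all genes. DESeq2 called 2 of the 12 lower, Lrat and Reln, beside 9.85% of all genes. Acta2, the actin of activated stellate cells, was read at 64.2, 13.2 and 5.68 CPM in the controls against 69.5, 78.2 and 36.6 CPM in the treated tumors. Thy1 of the same list was read at 44.0, 13.8 and 6.33 CPM in the controls against 48.2, 39.6 and 51.1 CPM in the treated tumors. Bulk RNA does not tell which cells Thy1 came from. Acta2 and Thy1 were lowest in controls 6 and 7 and Lrat was highest there, and these 3 were chosen after their values had been seen. Fap was also lowest in controls 6 and 7, with 1.01 and 1.18 CPM against 1.43 to 2.80 CPM in the other libraries. The list as a whole did not follow, since Pdgfra and Des in controls 6 and 7 lay within the treated range, from 11.1 to 38.3 CPM and from 6.90 to 18.9 CPM, and Dcn, Lum and Dpt were higher in controls 6 and 7 than in control 5. Dcn, Lum and Pdgfrb were the highest genes of the list by mean, and Dcn was read at 120.4, 446 and 513 CPM in the controls against 135, 276 and 75.7 CPM in the treated tumors.

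The other marker lists are given by their summed level. Biliary and epithelial markers, led by Spp1, Sox9 and Cdh1, were at 7049, 618 and 284 CPM in the controls and 4815 to 7162 CPM in the treated tumors. Spp1 alone held most of this sum, with 6826, 462 and 177 CPM in the controls. Sox9, Epcam and Krt7 were also highest in control 5 among the controls. Cdh1 was lowest there, at 38.2, 64.2 and 79.1 CPM, and Krt19 was highest in control 6, at 30.7, 69.4 and 13.0 CPM. Smooth muscle markers, led by Smtn, were at 21.8 to 85.3 CPM, and mesothelial markers, led by Msln, at 25.5 to 113 CPM in the controls and 128 to 227 CPM in the treated tumors. Leukocyte markers, led by Ptprc, Cd68 and Adgre1, were at 120 to 246 CPM in the controls and 252 to 486 CPM in the treated tumors, and 5 of 6 had a positive log2 fold change. Cd68, Cd3e and Itgam had all treated tumors above all controls, or 3 of 6 beside 8.89% of all genes, at log2 fold changes of 1.21, 1.44 and 2.11. DESeq2 called these 3 higher, beside 0.684% of all genes, and edgeR gave each an adjusted p of 0.247. Liver tumor markers, led by the proliferation genes Mki67 and Top2a, were at 670, 218 and 43.3 CPM in the controls and 478 to 568 CPM in the treated tumors. Mki67 and Top2a held most of this sum. Afp and Gpc3 went the other way in the controls, at 4.90, 10.2 and 13.2 CPM and at 1.09, 2.28 and 2.14 CPM. Their log2 fold changes were −1.26 and −1.06, and H19 was also lowest in control 5 among the controls. The part of these cells in the collagen levels was not tested.

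**Figure D5:**
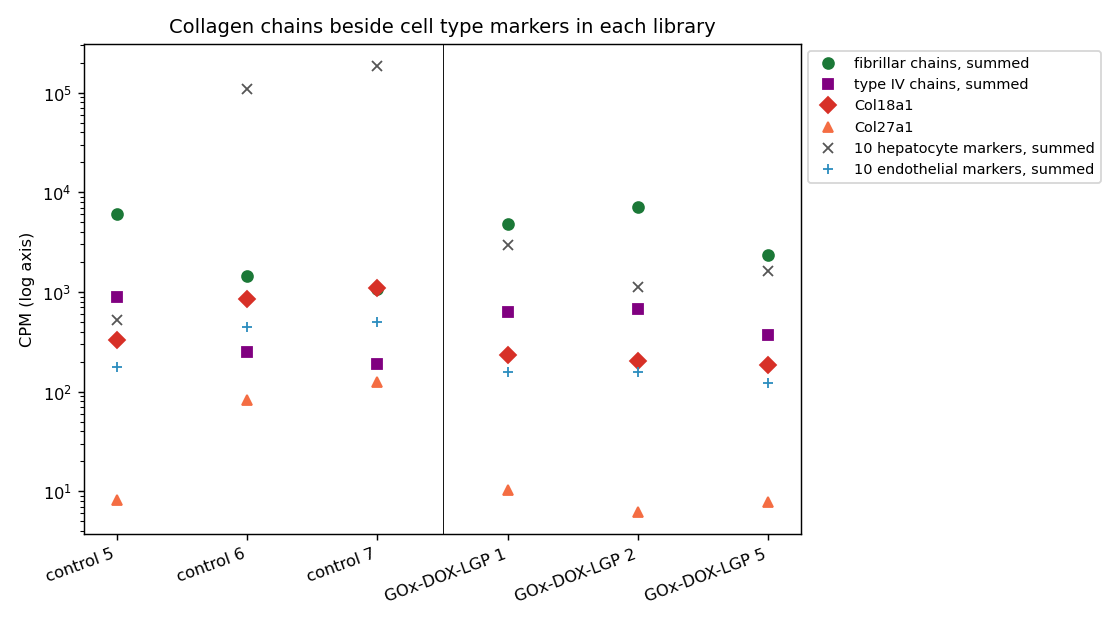
Summed fibrillar and type IV chains, Col18a1, Col27a1 and the summed hepatocyte and endothelial markers in each library, in CPM on a log axis. Hepatocyte markers are at 109470 and 184190 CPM in controls 6 and 7, where Col18a1 and Col27a1 are highest, and at 519 CPM in control 5.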

How the data were processed

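Bulk tumor RNA of 3 control and 3 GOx-DOX-LGP libraries was used. Raw read counts for each gene and library were deposited by the authors, neither normalized nor pooled. The signal values, also deposited, are those counts scaled by the authors with 1 factor per library, and served only for gene symbols. The methods of the study name TopHat and HTSeq for alignment and counting, whereas the submitters' processing notes name Trimmomatic 0.38, HISAT2 2.1.0 and featureCounts 2.0.0. The strand setting is not given in the sources used here. Positions are those of GENCODE M21 on GRCm38, in which all 55536 gene identifiers were found. The build used for counting is not given in the sources used here.

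Counts were filtered with filterByExpr at default settings (15374 genes kept), scaled by TMM and compared by the quasi-likelihood test of edgeR 4.0.16 in R 4.3.3, without covariates and with Benjamini-Hochberg adjustment over all genes, at a threshold of 0.05. The SE was taken from the F statistic. CPM values are counts divided by the product of library total and TMM factor, and 3 counts corresponded to 0.131 to 0.322 CPM. Such limits cover counting error only. Levels per kb used the protein-coding transcript with the longest open reading frame. The alternatives were DESeq2 1.42.0, voom of limma 3.58.1 with sample quality weights, 3 other scalings, 2 other filters and leaving out each library. The steps were tested on simulated data. Its libraries shared a common mean per gene apart from set differences between the groups, so it cannot speak to controls that differ among themselves as these do. Figures were drawn with matplotlib 3.10.9 in Python 3.11.15.

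The members and gene lists were chosen with earlier results of these data known, so that no count over them is an independent test. Values in each library are given for kept chains of types I, III, IV, V, VI, XV and XVIII, for the 5 kept chains with the largest absolute log2 fold change and for kept chains whose groups did not overlap. Of each companion list the 3 kept genes with the largest absolute log2 fold change are named, and of each marker list the summed level with its highest genes. Col7a1, Col25a1, Lrat, Reln, Acta2, Thy1, Pdgfra, Des, Fap, Dpt, Stab2, Epcam, Krt7, Krt19, Afp, Gpc3, H19, Cd3e, Itgam, Xist and Ddx3y were added after their values had been seen.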

Additional observations from a re-analysis of the deposited data

How the results depend on the processing

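An adjusted p under 0.05 was reached by 0 of 32 chains over all libraries and by 4 of 36 with DESeq2. With voom and sample quality weights it was reached by 24 of 32. Leaving out each library gave 0 to 19 chains, where only the fit without control 5, with 19 of 35, was above 0. For all genes the counts were 0 of 15374 over all libraries, 1739 of 16513 with DESeq2 and 9254 of 15374 with voom. With a library left out they were 0 to 7745, the latter of 16249 genes without control 5. Other scalings and filters gave 0 chains, and 0 among all genes. The median log2 fold change of the fibrillar chains was 0.77, 1.37 with voom, and 0.28 to 1.95 with a library left out. That of the basement membrane chains was −0.22, −1.50 with voom, 0.47 with library totals, and −1.39 to 0.29 with a library left out, the lowest without treated tumor 2. That of the other chains was 0.16, 0.68 with voom, 0.86 with the stricter filter, and 0.10 to 0.83 with a library left out. Library totals moved the median of all genes to 0.51, upper quartile factors to 0.19 and DESeq2 to 0.15, and relative to it the basement membrane median with library totals was −0.04.

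Signs turned for Col4a6 (0.52), Col5a3 (0.27) and Col23a1 (0.023) with library totals and for Col20a1 (−0.088) with voom. With a library left out, the log2 fold change ranged from −0.11 to 1.35 for Col4a2, −2.25 to 0.53 for Col4a6, −0.054 to 0.34 for Col11a2, −2.63 to 0.18 for Col6a5, −0.52 to 0.45 for Col16a1, −0.042 to 2.44 for Col15a1 and −0.23 to 0.83 for Col17a1. The cause was not tested. No paired analysis was possible because the groups share only the number 5. Depth limits the chains below 1 CPM, where a library holds few counts.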
